A study of Homo sapiens with 36 samples.

Results

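Heavy polysomes were compared with 80S monosomes in unmodified HUES6 cells, an established human embryonic stem cell line, to show which transcripts were more abundant in either fraction. The comparison used 6 of the 36 libraries of the series: 3 labelled Polysome2 (called heavy polysomes here) and 3 labelled 80S, all wild type (WT), paired by the culture number in their labels. Cells were kept in FTDA, a defined culture medium that maintains pluripotency, and cycloheximide, which stalls ribosomes, was given at 100 ng/ml for 5 min before lysis. The other libraries held the unfractionated Input, the 40S, disome and Polysome1 fractions under the same WT culture numbers, and the same 6 fractions of 3 cultures in which RBPMS, an RNA-binding protein, was knocked out (KO). The labels do not give the number of ribosomes in Polysome1 or Polysome2, nor whether the 3 cultures of a genotype were separate clones. The p-values therefore measure only the spread between these samples, which may be technical.

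A polysome gradient sorts RNA by size, so that free small subunits, single ribosomes, pairs of ribosomes and longer strings of ribosomes are collected in turn. An mRNA found deep in the gradient carries many ribosomes, which is taken as a sign of frequent initiation on an open reading frame long enough to hold them. The 80S peak is known to hold mRNAs with short reading frames, mRNAs that initiate rarely, and particles of similar size that are not translating.

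Transcripts were the 8479 of 223367 Ensembl IDs with 10 TPM or more in 3 or more of the 6 libraries, which is 3.796% of the IDs. TPM is an abundance corrected for transcript length and scaled to the same total in each library. These transcripts held 89.9 to 90.6% of the TPM of the heavy polysome libraries and 92.0 to 92.9% of the 80S libraries. At the edge of the rule, 2898 transcripts reached 10 TPM in exactly 3 libraries, with a median of 14.5 TPM in their third-highest library, and 1935 reached it in exactly 2, with a median of 7.88 TPM there. The deposited table pairs no ID with a gene, and 0 of the 59792 genes of the naming table used here carry an Ensembl ID. Transcripts are therefore given by ID, and neither RBPMS nor markers of embryonic stem cells were analysed here, so the cell type and the knockout rest on the labels. Of the 8479, 516 shared every one of their 36 values with at least 1 other, forming 200 sets.

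Heavy polysomes held a broader set of transcripts than 80S monosomes. Counting transcripts that reached 10 TPM, there were 9015, 8809 and 8773 in the heavy polysome libraries of cultures 1, 2 and 3, against 6393, 6154 and 6296 in the 80S libraries. No heavy polysome library overlapped an 80S library. It took the 406, 361 and 358 most abundant transcripts to reach 50% of the TPM of heavy polysomes, against 130, 122 and 148 in 80S. The top 10 transcripts of a library took 8.37% ± 2.74 of heavy polysomes and 13.5% ± 0.912 of 80S (SD, n = 3 each), and its top 100 took 30.0% ± 1.40 of heavy polysomes and 44.8% ± 1.40 of 80S. The difference ran the same way in 3 of 3 cultures for each of these measures, with an exact paired permutation p of 0.25 (two-sided), the smallest that 3 pairs can give. At 1 TPM or more the fractions lay closer, at 28985 ± 1391 transcripts in heavy polysomes and 26289 ± 1409 in 80S (SD, n = 3 each), and the libraries overlapped.

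Most transcripts differed between the fractions. In heavy polysomes 4724 transcripts were higher and 1587 lower than in 80S, together 74.4% of those tested (limma with culture as a block, Benjamini-Hochberg adjusted p under 0.05), and 2168 were not called. The 2 directions took 55.7% and 18.7% of the tested transcripts. The median log2 fold change of heavy polysomes over 80S was 1.84 among those higher (middle 50% from 1.39 to 2.36) and -1.97 among those lower (from -2.73 to -1.41), on the log2(TPM + 1) scale, which understates the change of low transcripts. It was 1.12 over all tested transcripts. A difference of more than 2 log2 units was found in 1968 of the higher and 783 of the lower transcripts, and one of more than 4 units in 110 and 84. The lower transcripts were thus fewer, and 84 of 1587 against 110 of 4724 reached the largest class.

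**Figure D1:**
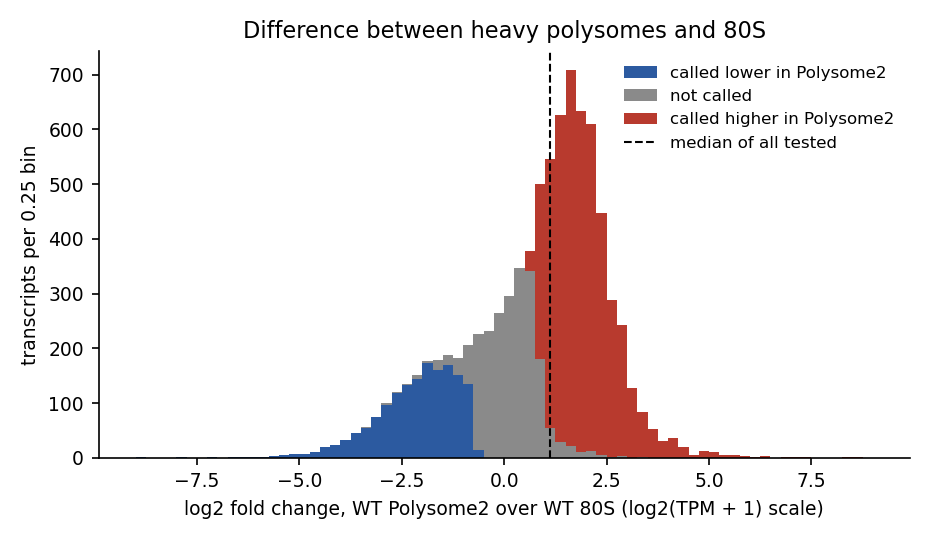
Number of transcripts (vertical axis) by log2 fold change of WT heavy polysomes over WT 80S (horizontal axis) for the 8479 tested transcripts, coloured by call. The bulk lies to the right of 0, with the dashed median of all at 1.12, and the 1587 lower transcripts form the long left flank.

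The directions describe the makeup of each fraction and depend on how the libraries are scaled to each other. Equal amounts of RNA were sequenced, so a transcript that was higher in heavy polysomes and a fall of others there cannot be told apart. With median-of-ratios scaling, which sets the typical transcript to no change, the median of all fell to 0.11, and 1997 transcripts were higher and 2488 lower, so that the lower calls became the majority (55.5% of calls, against 25.1%). Quantile normalization gave a median of 0.37 with 2694 higher and 2157 lower (44.5%). Scaling to the spike-in RNAs of the External RNA Controls Consortium (ERCC) gave a median of 3.205 with 6947 higher and 217 lower (3.03%). The ERCC total was only 9.41, 8.50 and 2.55 TPM in heavy polysomes, from 7 to 15 detected rows, and 36.5, 31.9 and 18.5 TPM in 80S, from 15 to 23 rows. Each library was scaled by its own ERCC total. An error in that total is shared by all transcripts of the library, and the p-values with ERCC scaling do not measure it. Across the scalings by library total, by median of ratios and by quantiles, 1956 transcripts were called higher each time and 1577 lower each time. All 1956 were also higher with ERCC scaling, while 217 were lower under all 4 scalings. Of the 1587 lower transcripts, ERCC scaling turned the sign of 861, of which 192 were called higher.

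For most tested transcripts the libraries of the 2 fractions did not overlap. All 3 heavy polysome libraries lay above all 3 80S libraries for 4740 transcripts (55.9%) and below them for 1570 (18.5%), beside the 74.4% that passed the test. Of these, 1970 and 655 reached 10 TPM in all libraries of 1 fraction and in none of the other, which fixed their separation. The median SD between replicates was 0.34 log2 units in heavy polysomes and 0.42 in 80S. Pearson's r across transcripts, a description since transcripts are no replicates, was 0.875 to 0.957 between heavy polysome libraries, 0.863 to 0.933 between 80S libraries, and 0.404 to 0.622 between a heavy polysome and an 80S library. The median difference was 1.10, 1.06 and 1.09 log2 units in cultures 1, 2 and 3, and over all 8479 tested transcripts 5263 were above 0 and 1859 below 0 in all 3. Without culture 3 the test called 6640 transcripts, without culture 1 it called 4938 and without culture 2 it called 5336.

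How a transcript passed the 10 TPM rule fixed part of these counts. Of the tested transcripts, 3503 reached 10 TPM in all 6 libraries, and among them 1595 were called higher, 624 lower and 1284 not called, with a median log2 fold change of 0.64. Another 1970 reached 10 TPM in all heavy polysome libraries and in no 80S library, and 655 in all 80S libraries and in no heavy polysome library. These 2 sets had to differ in level, and their 1938 higher and 641 lower calls are no support for the comparison. When transcripts were chosen by Input instead, at 10 TPM or more in all 3 WT Input libraries, 3957 of 6775 were higher and 912 lower.

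The transcripts that were not called were not all alike between the fractions. Only 531 of the 2168 had a 95% interval of the log2 fold change that lay wholly within 1 unit of 0. For the rest, a 2-fold difference in at least 1 direction lay within the interval.

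The other WT fractions, which the comparison did not use, placed the 3 sets of transcripts along the gradient. The higher transcripts rose step by step. Their median level was 3.43, 3.38 and 3.16 log2(TPM + 1) in the 80S libraries, 4.36, 4.16 and 3.19 in disome, 4.51, 4.47 and 4.31 in Polysome1 and 5.21, 5.22 and 4.99 in Polysome2. For 3294 of the 4724 (69.7%) the mean TPM rose at each step, and 4105 (86.9%) had their highest mean of the 5 gradient fractions in Polysome2. Over all tested transcripts these shares were 40.4 and 53.6%. Both counts also use the 80S and Polysome2 values that chose the set, so they follow in part from the calls. Disome culture 3 stood below the other 2 disome libraries.

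The lower transcripts did not fall step by step. Their median level was 5.23, 5.20 and 5.62 log2(TPM + 1) in the 80S libraries, 5.40, 5.59 and 5.52 in disome, 5.00, 4.96 and 4.88 in Polysome1 and 3.40, 3.19 and 3.64 in Polysome2. The disome and 80S libraries overlapped, and the main drop came between the 2 polysome fractions, with a median of -1.60 log2 units from Polysome1 to Polysome2 against -0.53 from disome to Polysome1 and 0.08 from 80S to disome. The highest mean was in disome for 764 of the 1587 (48.1%), in 80S for 529 (33.3%), in Polysome1 for 149 (9.39%) and in 40S for 145 (9.14%). Over all tested transcripts these shares were 14.97, 8.31, 20.6 and 2.500%. Polysome2 held the highest mean for 0 of the 1587, since the set was called lower there than in 80S. A fall at each step from 80S to Polysome2 was seen in 572 (36.04%), beside 7.076% of all tested. The 80S and Polysome2 values also chose the set, so these contrasts follow in part from the calls.

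The transcripts that were not called had, as a set, their highest median level in Polysome1. Their median level was 4.55 to 4.62 log2(TPM + 1) in 80S, 5.05 to 5.32 in Polysome1 and 4.60 to 4.86 in Polysome2. Polysome1 did not overlap either end. In disome it was 5.17, 5.19 and 4.72, so the disome and Polysome1 libraries overlapped. Polysome1 held 1368 of the 2168 (63.1%) at a higher mean than both 80S and Polysome2, against 599 of the higher (12.7%), 484 of the lower (30.5%) and 28.9% of all tested transcripts. Disome was above both ends in 1246 (57.5%), beside 27.9% of all tested. The 80S and Polysome2 values also chose the sets, so part of these contrasts follows from the calls. The highest mean of the 5 gradient fractions was in Polysome1 for 1030 of the 2168 (47.5%), beside 20.6% of all tested. It was in disome for 459, in Polysome2 for 438, in 80S for 176 and in 40S for 65.

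**Figure D2:**
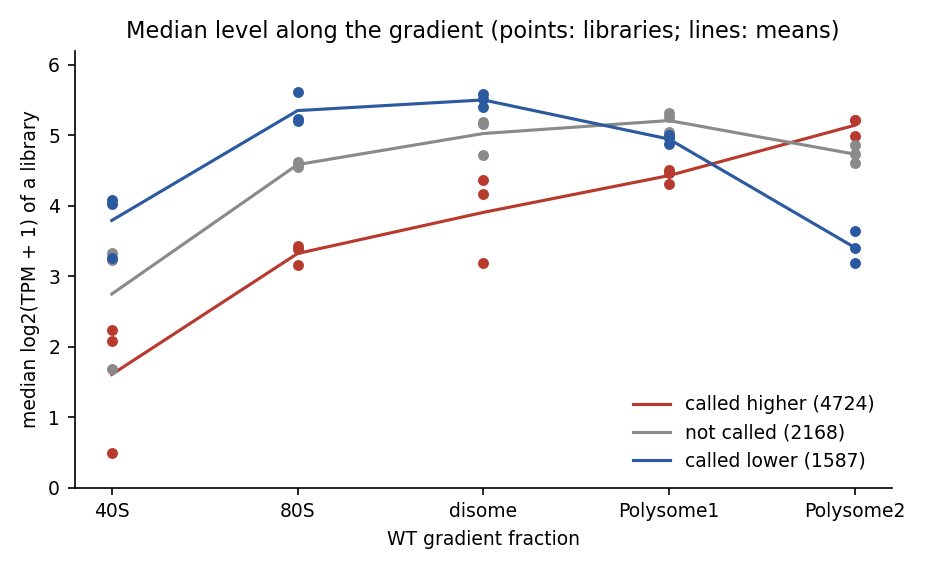
Median log2(TPM + 1) of each set of transcripts (vertical axis) in each WT gradient fraction (horizontal axis), with 1 point a library and lines through the means of 3. The higher set climbs from library medians of 3.16 to 3.43 in 80S to 4.99 to 5.22 in Polysome2. The set not called has its highest mean in Polysome1, where its libraries overlap those of disome. The lower set stays high through disome and drops in Polysome2.

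The 3 sets took different shares of the RNA in each fraction. The higher transcripts made up 46.2, 47.2 and 39.1% of the TPM of heavy polysomes, against 12.3, 12.5 and 10.9% of 80S. The lower transcripts made up 8.25, 7.26 and 12.5% of heavy polysomes, against 40.6, 40.8 and 48.3% of 80S. These shares follow from how the sets were called. In the fractions outside the comparison, the lower transcripts took 59.4% ± 5.94 of 40S, 37.6% ± 6.42 of disome, 26.3% ± 1.83 of Polysome1 and 32.8% ± 1.497 of Input (SD, n = 3 each). The higher transcripts took 4.58% ± 2.59 of 40S, 17.7% ± 5.42 of disome, 26.4% ± 1.68 of Polysome1 and 24.3% ± 1.51 of Input. The 40S share rested on few transcripts, since the top 100 of a library held 70.0 to 79.3% of its TPM. The typical lower transcript was less abundant in 40S than in 80S, with a median of 4.03, 4.09 and 3.27 log2(TPM + 1) in the 40S libraries, and so was the typical higher one, with 2.09, 2.24 and 0.50.

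**Figure D3:**
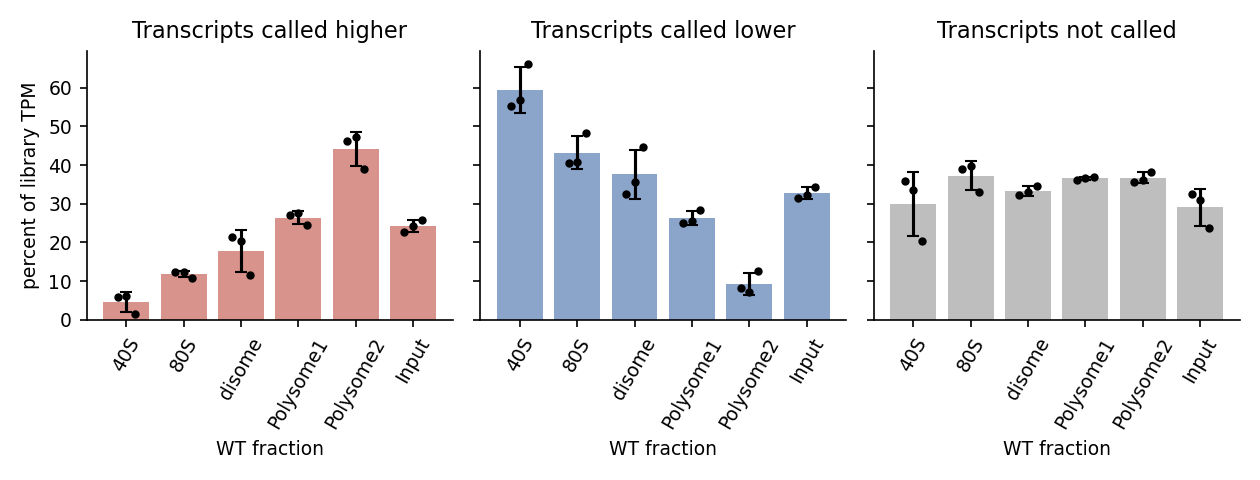
Percent of library TPM (vertical axes) held by the 4724 higher, 1587 lower and 2168 uncalled transcripts in each WT fraction (horizontal axes), with bars for the mean of 3 libraries, error bars for the SD and points for libraries. The share of the higher set grows from 40S to Polysome2 and that of the lower set shrinks.

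The mix of directions varied with the level in Input, which was also outside the comparison. Among the 10 most abundant tested transcripts of Input, all at 6618 TPM or more, 9 were lower in heavy polysomes than in 80S and 0 were higher, with a median log2 fold change of -4.09. Together these 10 took 0.796, 0.771 and 1.23% of the TPM of heavy polysomes, against 9.70, 10.8 and 10.05% of 80S. They stayed lower under the other scalings, with 10, 9 and 6 called lower by median-of-ratios, quantile and ERCC scaling and 0 called higher. Among the 100 most abundant, 42 were lower and 6 higher, a direction that ERCC scaling turned to 11 lower and 46 higher. Among the 1000 most abundant, 197 were lower and 478 higher. Median-of-ratios scaling turned this to 388 lower and 252 higher.

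Over 5 bins of equal size by mean Input TPM, the share of transcripts called higher was 40.2% in the lowest bin (up to 8.35 TPM), 57.8, 64.1 and 62.6% in the middle bins, and 54.0% in the highest (from 59.8 TPM). The share called lower was 29.1% in the lowest bin, 17.0, 13.9 and 15.2% in the middle bins and 18.4% in the highest. For higher calls, ERCC scaling kept this order of the bins, at 69.6, 83.5, 87.7, 86.7 and 82.1%, while quantile and median-of-ratios scaling changed it. By quantile normalization it was 13.5% in the lowest bin, 23.9, 36.4 and 41.3% in the middle bins and 43.75% in the highest, and by median of ratios 12.1, 19.6, 27.8, 30.5 and 27.8%. The lowest and the third bin kept their order for lower calls under the other scalings, at 39.0 and 22.8% by median of ratios, 37.2 and 20.9% by quantiles and 7.13 and 1.003% by ERCC. Transcripts below 1 TPM in all 3 Input libraries were 54 of the lower (3.40%) and 38 of the higher (0.804%), against 1.84% of all tested.

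A few transcripts were found in 1 of the 2 fractions at most at trace level. At 10 TPM or more in all heavy polysome libraries and below 1 TPM in all 80S libraries were 46 transcripts, and the reverse held for 40. The 46 were near 0 in the lighter fractions, at a median of 0.048 TPM in 40S and 1.41 TPM in disome, with 4.30 TPM in Polysome1 and 13.3 TPM in Input. The 40 had a median of 7.87 TPM in 40S, 22.7 TPM in disome and 6.41 TPM in Polysome1, and 0.341 TPM in Input. Of the 40, 20 stayed below 1 TPM in all 3 Input libraries, against 4 of the 46.

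The transcripts with the largest changes were taken from those called, with a mean of 50 TPM or more in the higher fraction and no overlap between libraries, as the 2 largest rises and the 2 largest falls on the log2(TPM + 1) scale. All 4 reached 10 TPM in libraries of 1 of the 2 fractions and none of the other, so their p-values describe the choice and support nothing. The order within each pair turned with a pseudocount of 0.1 TPM. ENST00000531413.5 had 739, 286 and 423 TPM in heavy polysomes of cultures 1, 2 and 3, against 0, 0.599 and 0 TPM in 80S. All heavy polysome libraries were high and all 80S libraries were at or near 0, with a log2 fold change of 8.58 (SE 0.42, limma adjusted p = 0.001374). In disome it was listed at 0, 1.04 and 0 TPM and in Polysome1 at 1.66, 101.9 and 74.6 TPM, so culture 1 lacked it in Polysome1 while it was highest there in Polysome2. Input held 260.4, 258.0 and 185 TPM.

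ENST00000369387.4 had 521, 179 and 585 TPM in heavy polysomes and was listed at 0 in all 3 80S libraries. No fold change is given against the listed 0 (limma adjusted p = 0.001374). It was also listed at 0 in all 3 disome libraries, with 51.6, 288 and 295 TPM in Polysome1 and 499, 363 and 244 TPM in Input. Both transcripts were thus abundant in Input and in polysomes and at or near 0 on monosomes and disomes. In 40S, ENST00000531413.5 had 38.1, 2.66 and 0 TPM and ENST00000369387.4 had 6.80, 0 and 0 TPM.

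ENST00000602946.1 was listed at 0, 1.45 and 3.21 TPM in heavy polysomes, against 1543, 467 and 1210 TPM in 80S, a log2 fold change of -8.78 (SE 0.60, limma adjusted p = 0.001374). The libraries in between disagreed among cultures. Disome had 8.81, 1520 and 987 TPM and Polysome1 had 26.8, 1052 and 24.98 TPM. The 40S libraries also disagreed, at 328, 3.05 and 574 TPM. Input had 0.519, 1.56 and 1.88 TPM, so a transcript abundant in each 80S library was below 2 TPM in each Input library.

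ENST00000429938.1 had 1.09, 0 and 0 TPM in heavy polysomes, against 228, 318 and 392 TPM in 80S, a log2 fold change of -7.90 (SE 0.41, limma adjusted p = 0.001374). Its level fell along the gradient in an orderly way, with 143, 183 and 366 TPM in disome and 76.1, 86.1 and 87.6 TPM in Polysome1. In 40S it had 120, 117 and 394 TPM and in Input 46.6, 53.9 and 26.3 TPM. The adjusted p was the same for the 4 transcripts because the Benjamini-Hochberg adjustment ties the smallest values. The sizes of these changes depend on the pseudocount: for ENST00000531413.5 the log2 fold change was 11.2 with 0.1 TPM and 5.49 with 10 TPM in place of 1 TPM. How the estimates divided reads among IDs that share sequence was not tested.

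**Figure D4:**
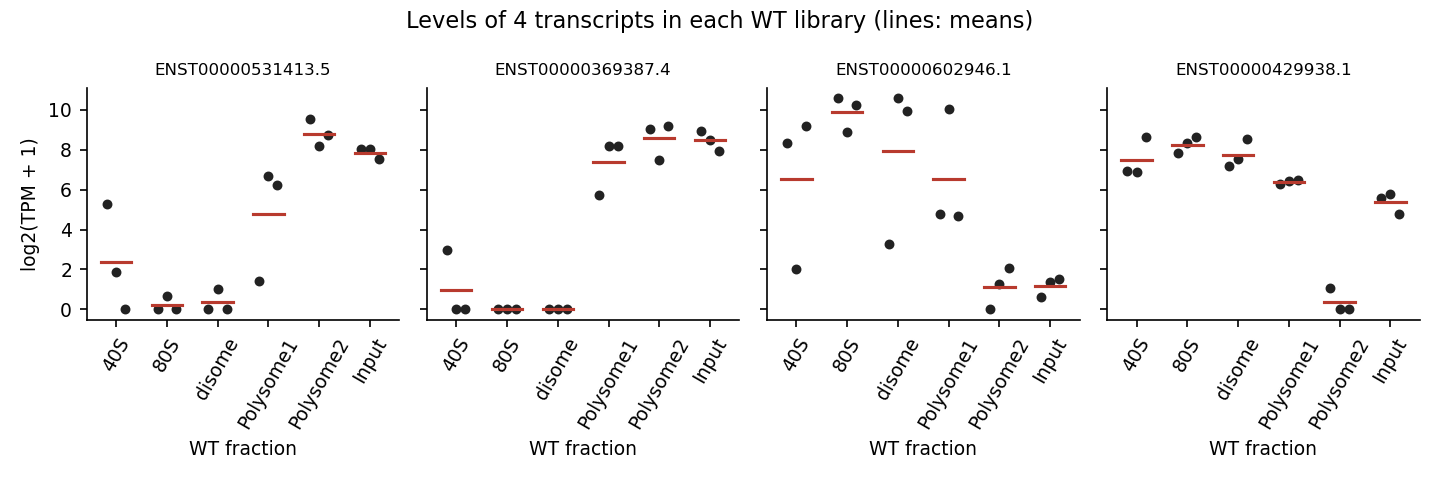
Level as log2(TPM + 1) (vertical axis) of the 4 transcripts in each WT library by fraction (horizontal axis), with points for cultures 1 to 3 from left to right and lines for the mean. The first 2 transcripts are near 0 in 80S and disome and high in Polysome2 and Input, and the last 2 are high in 80S and near 0 in Polysome2.

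The 3 KO cultures, which share no library with the WT comparison, gave the same contrast unequally. KO cultures 1 and 2 stood apart from KO culture 3 in both fractions. Their heavy polysome library resembled their own 80S library at Pearson's r of 0.922 and 0.932 across transcripts, against 0.794 in KO culture 3 and 0.546, 0.518 and 0.532 in the same-numbered WT libraries. The KO heavy polysome libraries correlated with the WT heavy polysome mean at 0.388, 0.447 and 0.887 for KO cultures 1, 2 and 3, and the KO 80S libraries with the WT 80S mean at 0.586, 0.663 and 0.878. KO cultures 1 and 2 also held fewer transcripts at 1 TPM or more, with 21548, 20594 and 30940 in KO heavy polysomes of cultures 1, 2 and 3 and 18407, 18851 and 27832 in KO 80S. Their ERCC total was higher, at 579, 498 and 47.8 TPM in KO heavy polysomes and 413, 211 and 107 TPM in KO 80S. The part of these differences between libraries in the KO results was not tested.

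In KO culture 3, 95.8% of the 4724 transcripts higher in WT heavy polysomes were also higher, beside 71.5% of all tested, and 89.1% of the 1587 lower ones were lower, beside 28.3% of all tested. Their medians were 1.11 and -0.85 log2 units in KO culture 3, against 1.77 to 1.86 and -2.05 to -1.87 in the WT cultures. In KO cultures 1 and 2, 67.6 and 65.3% of the higher transcripts were higher, beside 64.7 and 57.2% of all tested, and 34.7 and 57.2% of the lower ones were lower, beside 23.2 and 33.7% of all tested. Their medians were 0.47 and 0.36 log2 units for the higher and 0.19 and -0.15 for the lower transcripts.

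Tested alone, the KO cultures gave 87 transcripts higher (1.03%) and 7 lower (0.0826%) in heavy polysomes than in 80S (limma with culture as a block, 1.11% called), with 2157 at an unadjusted p under 0.05. Of the 87, 78 were among those higher in WT, a set that held 55.7% of all tested. Of the 7, 6 were among those lower in WT, a set that held 18.7% of all tested. Without KO culture 2 or without KO culture 3 the count was 0, with 1529 and 1062 at an unadjusted p under 0.05, and without KO culture 1 it was 87. With no block for culture it was also 0, with 495 at an unadjusted p under 0.05.

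The difference between KO and WT was tested as an interaction of genotype and fraction. It passed for 2161 transcripts (25.5%), with the KO difference of heavy polysomes over 80S above the WT one in 873 (10.3%) and below it in 1288 (15.2%). That split depended on the scaling: it was 1028 above and 567 below with median-of-ratios scaling, and 1283 above and 1101 below with quantile normalization. Among the transcripts higher in WT heavy polysomes, 1278 had a smaller or opposite difference in KO and 19 a larger one, and among the lower transcripts 810 and 1. The WT values enter both the choice of these transcripts and the interaction, so these counts are no independent evidence of a smaller difference. The count of calls rested on single cultures and on the block. With no block for culture it was 0 (1068 at an unadjusted p under 0.05, against 3700 in the main fit). Leaving out KO cultures 1, 2 and 3 in turn, it was 531, 16 and 3015 (2877, 2736 and 4175 at an unadjusted p under 0.05). Leaving out WT cultures 1, 2 and 3 in turn, it was 586, 745 and 1212 (2924, 2950 and 3332 at an unadjusted p under 0.05). With KO cultures 1 and 2 both left out it was 1, from 1 KO culture with no spread of its own.

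**Figure D5:**
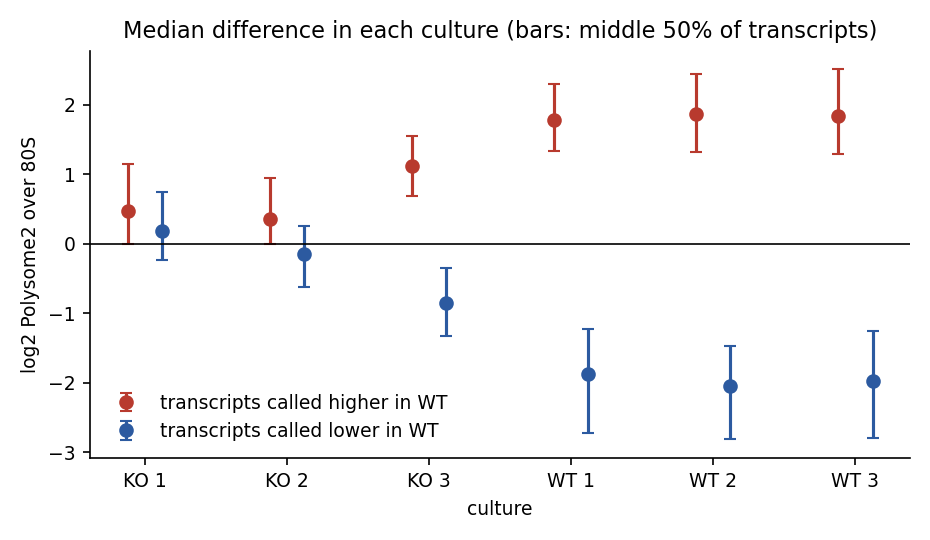
Median log2 difference of heavy polysomes over 80S (vertical axis) in each KO and WT culture (horizontal axis) for the transcripts called higher (red) and lower (blue) in WT, with bars for the middle 50% of transcripts. The 2 sets lie far apart in the 3 WT cultures, closer in KO 3, and near 0 in KO 1 and KO 2.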

How the data were processed

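The deposited table gave TPM per transcript, computed by the authors. Per the submitters' processing notes the tools were kallisto and sleuth on hg19; their versions are not given in the sources used here. Each library summed to 1000000 over Ensembl and ERCC rows. Since TPM holds no read counts, depth per library is unknown and counting error has no interval here. A stranded mRNA kit was used on equal RNA amounts, per the labels' protocols. All value columns were mapped to samples.

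ERCC rows were set aside and values taken as log2(TPM + 1). Heavy polysomes minus 80S was fitted with limma 3.58.1 (R 4.3.3) over the 6 WT libraries, with culture number as a block, 2 residual degrees of freedom, and eBayes with a trend. P-values were adjusted by Benjamini-Hochberg over the 8479 transcripts, threshold 0.05. The interaction used 12 libraries, with each culture as a block. The fits were tested on simulated data. Named transcripts followed the rule given with their values. Alternatives covered scaling, pseudocount, filters, blocks and left-out cultures. The transcripts, tests and lists were chosen with earlier results of these data known. Gene lists were not used, since no ID was matched to a gene. Figures came from matplotlib 3.10.9; summaries came from pandas 2.3.3, numpy 2.4.6 and scipy 1.17.1 under Python 3.11.15.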

Additional observations from a re-analysis of the deposited data

Results flagged for a closer look

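The difference of heavy polysomes over 80S differed between KO and WT cultures for 2161 transcripts by the interaction test (limma, adjusted p under 0.05). With KO cultures 1 and 2 both left out it was 1 transcript.

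Of the 4 named transcripts, 3 passed that test. ENST00000531413.5 and ENST00000369387.4 were listed at 0 in every library of KO cultures 1 and 2, Input included, so their difference there is 0 minus 0 and measures no difference between fractions. ENST00000531413.5 was listed at 0, 0 and 244 TPM in KO heavy polysomes of cultures 1, 2 and 3 and at 0, 0 and 166 TPM in KO 80S (limma adjusted p of the interaction = 0.001054). The call ended without KO cultures 1 and 2 (limma adjusted p = 0.1997) and with no block (limma adjusted p = 0.2912). ENST00000369387.4 was listed at 0 in all 3 KO heavy polysome libraries and at 0, 0 and 52.0 TPM in KO 80S, with 190.8 TPM in Input of KO culture 3 (limma adjusted p = 0.00893). Its call ended without KO culture 2 (limma adjusted p = 0.05113) and with no block (limma adjusted p = 0.1366). Without KO cultures 1 and 2 together its interaction estimate was -14.3 log2 units, against -10.5 with all cultures. That estimate did not rest on KO cultures 1 and 2, but came from KO culture 3 alone, with no spread of its own. ENST00000429938.1 had 168, 134 and 0.209 TPM in KO heavy polysomes and 167, 221 and 82.8 TPM in KO 80S (limma adjusted p = 0.0249). Its call ended without any 1 of KO cultures 1 and 2 and WT cultures 1, 2 and 3, without KO cultures 1 and 2 together, with no block (limma adjusted p = 0.2869) and with a pseudocount of 0.1 TPM (limma adjusted p = 0.0705), and KO culture 3 alone showed the near absence from heavy polysomes seen in WT.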

How the results depend on the processing

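The call total for WT heavy polysomes against 80S stayed within 1.5 times of 6311 under 14 of 17 alternatives, and the filter on low values moved it most. With 10 TPM in all 6 libraries 2354 of 3503 were called (1682 higher, 672 lower), and with 1 TPM in 3 libraries 15903 of 29304 (11365 higher, 4538 lower). With no filter limma called 0 of 129367, with a smallest adjusted p of 0.05232 and 21516 at an unadjusted p under 0.05, which also ended the calls of the 4 named transcripts. The prior degrees of freedom were 1.86 there, against 3.49. Rows chosen by Input, an alternative added after seeing the data, gave 912 lower. The scalings gave 1997 higher and 2488 lower (median of ratios), 2694 higher (quantile) and 217 lower (ERCC). Leaving out 1 culture gave 4938 to 6640 calls, 3674 to 4871 higher and 1264 to 1769 lower. The 4 named transcripts kept their direction and, but for no filter, their call under the alternatives that tested them. None was tested with 10 TPM in all 6 libraries, nor ENST00000602946.1 among rows chosen by Input.

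With no replicate block 6041 were called (4528 higher, 1513 lower), 4477 of the higher and 1490 of the lower shared. Deviations of same-numbered libraries correlated at 0.23, 0.07 and 0.21 across transcripts for cultures 1, 2 and 3. Each library correlated best with its own number, but heavy polysomes of culture 2 only at 0.0694, against 0.0659 with 80S of culture 1, so the number is a hint of pairing.

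The interaction count of 2161 became 628 with a pseudocount of 0.1 TPM, 753 with 10 TPM in all 6 WT libraries, 0 with no replicate block, 1 without KO replicates 1 and 2 (added after seeing the data), and 16 to 3015 when 1 culture was left out. Its direction for ENST00000602946.1, which did not pass the test, turned to -0.75 without KO replicates 1 and 2. The KO count of 94 became 0 with no replicate block (495 at an unadjusted p under 0.05) and 0 to 87 when 1 KO culture was left out. These KO alternatives were also added after seeing the data. Sums over the transcripts of a gene were not run, since no ID was matched to a gene.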
